A study of Mus musculus with 12 samples.

Results

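Prostanoid receptors are the G protein-coupled receptors through which cells sense prostaglandins and thromboxane. The mouse genes Ptgfr, Ptger1, Tbxa2r, Ptgdr, Ptgir, Ptger4, Ptger2 and Ptger3 encode the family and are described here in dorsal root ganglia, which house the cell bodies of the neurons that carry touch, pain and itch to the spinal cord. These 8 genes were taken by name from the 35583 genes to which the deposited transcripts could be assigned. They were chosen by name with their levels and fold changes between genotypes in these same libraries already known, so their values in that comparison are given as a description, and tests are given for sex and for the interaction of sex and genotype. Other genes of the pathway are given with the adjusted p of the fit across all genes, though their lists too were drawn up with results of these libraries known.

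Poly(A) RNA of the ganglia was sequenced in 12 libraries at 24 weeks of age, from 3 wild-type (WT) males, 3 WT females, 1 YAC Q84 male and 5 YAC Q84 females. YAC Q84 mice carry the human ATXN3 gene with an expanded CAG repeat on a yeast artificial chromosome, beside the mouse gene, and model spinocerebellar ataxia type 3 (SCA3). WT mice are the controls, and no library was given a treatment. Strain background, transgene copy number and the litter of each animal are not given in the sources used here, nor is whether each library is a separate animal. The p-values below therefore reflect differences among libraries, and these may be technical.

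Libraries held 66490481 to 86891563 estimated counts in total, and these totals did not pass a test between genotypes (two-sided exact permutation p = 0.180). All 12 sex labels matched the Y-linked genes. Of the genotype labels, 2 went against a 1000-base transcript of Atxn3, to which reads of the human gene can be assigned. It lay between 62.7 and 79.4 TPM (a level per transcript length, scaled to the same total in every library) in 5 of the libraries labelled Q84 and at 0.285 TPM or less in 5 labelled WT. The value was 34.0 TPM under the label WT female 2 and 0.0612 TPM under the label Q84 female 5. These 2 are shown apart below, so that "the 5 WT" and "the 5 Q84" libraries leave them out, and no library was moved to another group. All 12 neuron markers of a fixed list were detected, with summed levels of 6788 to 10613 TPM over the libraries.

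Prostanoids are made from arachidonic acid by the cyclooxygenases Ptgs1 and Ptgs2 and a set of terminal synthases, act close to where they are released, and reach a separate receptor or group of receptors for each ligand. In sensory ganglia they are best known for sensitising nociceptors, the neurons that detect damage and itch. Receptors coupled to Gs raise cyclic AMP and activate protein kinase A, receptors coupled to Gq activate phospholipase C beta and protein kinase C, and the main form of the Gi-coupled receptor lowers cyclic AMP.

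Over all 12 libraries Ptgdr had the highest mean level, 28.2 TPM, and it was followed by Ptgfr at 25.4, Ptger3 at 18.5, Ptgir at 8.66, Ptger4 at 5.30, Ptger1 at 1.33, Tbxa2r at 1.22 and Ptger2 at 0.811 TPM. The ranges of neighbours in this order overlapped throughout, except between Ptger4 (4.27 to 6.37 TPM) and Ptger1 (0.370 to 2.61 TPM). Of the Ptger3 level, 90.4% on average was a transcript annotated as a retained intron, without coding sequence. By group mean, Ptgfr came first in the 5 WT libraries (37.3 TPM, beside 36.1 TPM of Ptgdr) and Ptgdr in the 5 Q84 libraries. Of that Ptgfr mean, 6.33 TPM was a non-coding transcript of 279 bases. It held 0.299% of the gene's estimated counts on average over the 12 libraries. The coding transcripts of Ptgfr were at 25.8 and 5.14 TPM in the 5 WT, so Ptgfr comes first there only with the non-coding transcript counted. Within a library the level of Ptgfr was 0.891 to 1.35 times that of Ptgdr in the 5 WT and 0.698 to 0.920 times in the 5 Q84, ranges that overlap. Ptger1 was sixth of the family in the WT mean and last in the Q84 mean. Its only coding transcript was at 1.02 TPM in the 5 WT and 0.337 TPM in the 5 Q84 libraries. A retained intron (34.7%) and a non-coding processed transcript (13.2%) held the rest of its level over the 12 libraries. The larger coding transcript of Tbxa2r alone was at 1.21 TPM in the 5 WT. Ptger1 thus comes before Tbxa2r there only with its non-coding transcripts counted.

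**Figure D1:**
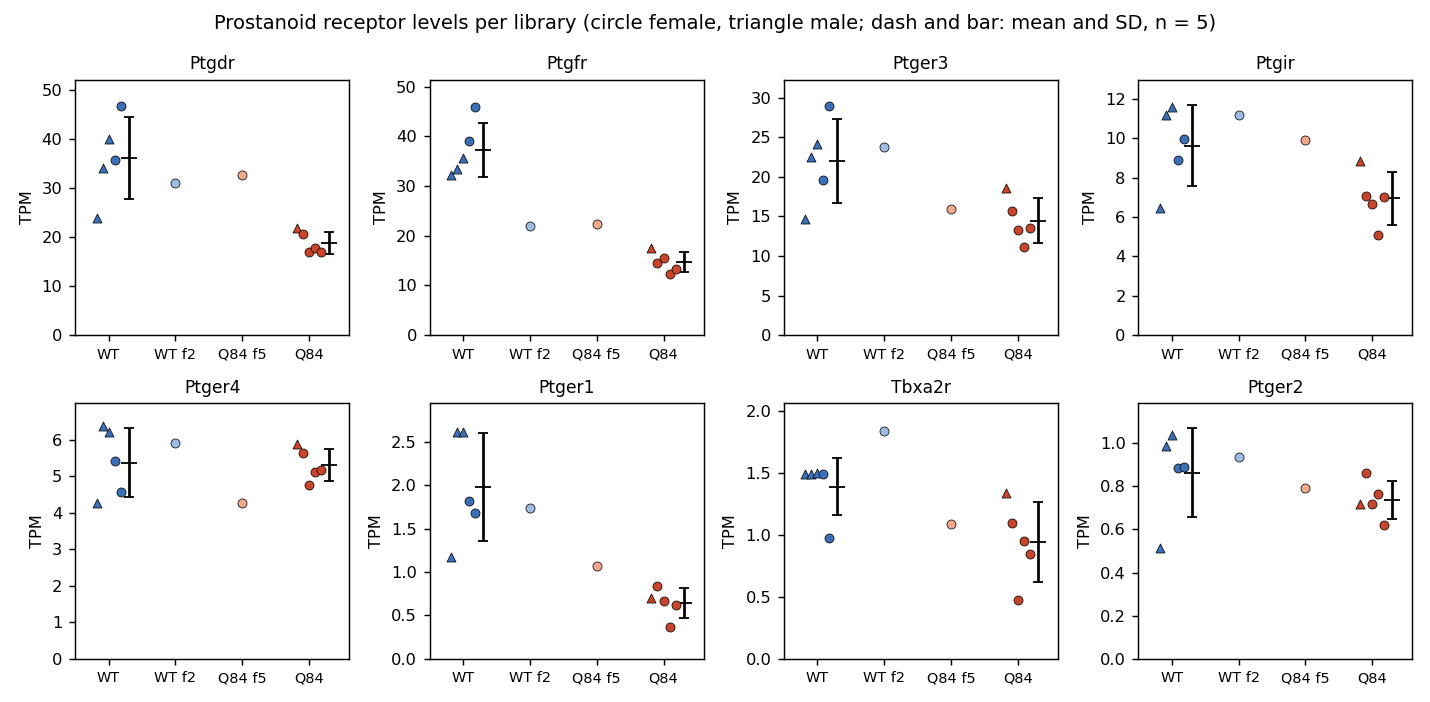
Level of each prostanoid receptor gene in TPM (vertical axes, from 0) in every library, with the 5 WT libraries, the library labelled WT female 2 (WT f2), the library labelled Q84 female 5 (Q84 f5) and the 5 Q84 libraries from left to right. Circles are female, triangles male, and the dash and bar are the mean and SD of 5 libraries. For Ptgdr, Ptgfr and Ptger1 every one of the 5 Q84 libraries lies below every one of the 5 WT libraries, and for Ptger4 the groups lie at the same height.

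Receptor levels were lower in Q84 for 3 genes by a margin that left no overlap between the 5 WT and 5 Q84 libraries: Ptgfr, Ptger1 and Ptgdr. The other 5 receptors overlapped, and Ptger4 had nearly the same mean in both groups. Over all genes tested, 6.16% had groups of 5 that did not overlap in this direction and 1.86% in the other. In the edgeR quasi-likelihood fit to these 10 libraries, 3 of the 8 receptors passed an adjusted p of 0.05, all lower, where 6.45% of the 18721 genes tested passed in either direction and 4.93% lower. The median log2 fold change of the 8 was -0.49 and 7 were below 0, against a median of 0.01 and 47.7% below 0 for all genes tested. In the fit to the 12 libraries as labelled, 0 of the 8 passed, where 0.0053% of 18875 genes did. There, 4 of the 8 had an unadjusted p under 0.05 with edgeR, as had 2695 of the 18875 genes. In the same libraries limma-voom called 0 of the 8 and DESeq2 called 4 (Ptgfr, Ptger1, Ptger3 and Ptgdr). DESeq2 also called far more genes there than edgeR did, with the number given in the closing section. Without the library labelled Q84 female 5 alone edgeR called the same 4, without the library labelled WT female 2 alone it called 1 (Ptgfr), and without WT male 1 alone it called 1 (Ptger1). Since the receptors were picked for this contrast, these counts describe them and test nothing. In whole ganglia, fewer cells of a type and less RNA per cell cannot be told apart.

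**Figure D2:**
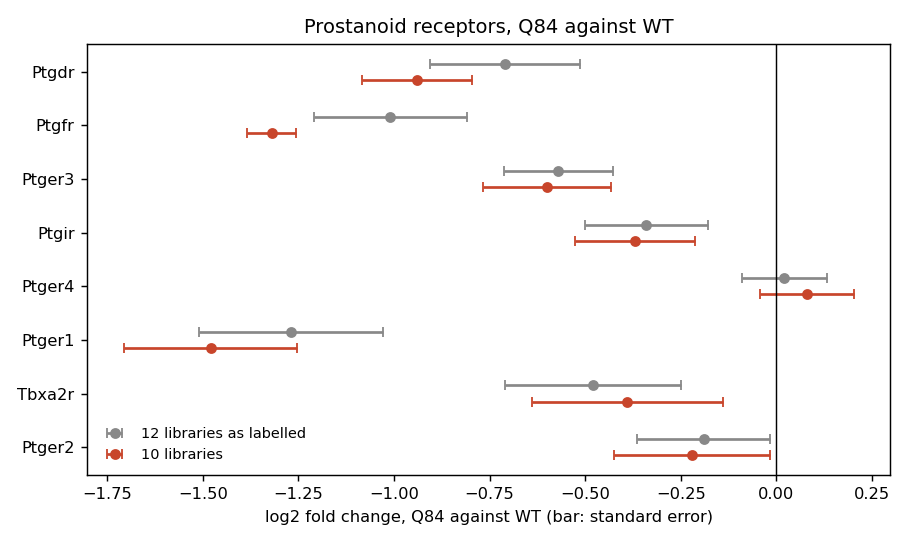
Log2 fold change of each prostanoid receptor, Q84 against WT (horizontal axis), from edgeR in the 12 libraries as labelled (grey) and in the 10 libraries without the pair shown apart (red), with bars of 1 standard error. The values run from -1.48 (Ptger1) to 0.08 (Ptger4) in the 10 libraries, and Ptgfr, Ptgdr and Ptger1 lie nearer to 0 in all 12.

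The stretches upstream of the start sites of Ptgfr and Ptgdr, the 2 most abundant members and both lower in Q84, are printed beside that of Ptger4, whose groups had nearly the same mean. They are RefSeq promoter windows of the mouse build GRCm38.p6, all on the minus strand and written 5′ to 3′ along the gene: chr3:151837631-151837778 for Ptgfr, chr14:44859376-44859625 for Ptgdr and chr15:5244188-5244437 for Ptger4. Of the 8 receptors, 7 had an entry. Capitals mark matches, on either strand, to the following motifs. The E-box was searched as CANNTG, which basic helix-loop-helix factors bind. The RUNX site was searched as TGTGGT, bound by Runt-domain factors. The half-site of the cyclic AMP response element was searched as TGACG, the GC box, known from SP1, as GGGCGG. The TATA box of core promoters was searched as TATAAA and the site of AP-1, the Fos and Jun dimer, as TGANTCA.
Ptgfr: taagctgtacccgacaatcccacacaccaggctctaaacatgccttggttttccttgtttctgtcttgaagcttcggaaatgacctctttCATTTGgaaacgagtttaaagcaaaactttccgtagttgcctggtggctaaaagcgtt
Ptgdr: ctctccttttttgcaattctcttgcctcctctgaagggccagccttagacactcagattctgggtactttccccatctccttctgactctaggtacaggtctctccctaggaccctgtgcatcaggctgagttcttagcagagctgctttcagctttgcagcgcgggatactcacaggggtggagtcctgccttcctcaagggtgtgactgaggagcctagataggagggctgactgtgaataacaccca
Ptger4: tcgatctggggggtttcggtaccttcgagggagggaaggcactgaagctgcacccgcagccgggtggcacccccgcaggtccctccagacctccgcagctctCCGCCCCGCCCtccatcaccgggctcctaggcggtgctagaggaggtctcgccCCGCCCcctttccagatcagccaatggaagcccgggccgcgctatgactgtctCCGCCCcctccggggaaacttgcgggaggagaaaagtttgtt
The Ptger4 window held 4 GC boxes, 2 of them overlapping, a GC content of 66.8% and 19 CpG pairs. The Ptgdr window held none of these motifs, a GC content of 53.2% and 2 CpG pairs. The Ptgfr sequence held 1 E-box, and its whole window of 250 bases, with a GC content of 52.0% and 10 CpG pairs, also held 1 GC box in the part not printed, where another annotation (GENCODE M21) starts the transcript 102 bases further upstream. Of 32817 promoters in the same table, 66.2% held an E-box, 32.7% a GC box, 17.7% a half-site of the cyclic AMP response element, 14.0% a RUNX site, 12.4% a TATA box and 6.75% an AP-1 site, and the median GC content was 52.4%. Among the windows not printed, that of Ptger3 held 3 GC boxes (GC content 62.0%) and that of Ptgir 2 (63.6%). The window of Ptger2 (38.0%) and both windows of Tbxa2r (62.4% and 60.4%) held 0. These matches are letters in a window and were tied to no level.

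Ptgfr, the receptor for prostaglandin F2 alpha, couples to Gq and is encoded on chromosome 3. Its level was 32.3, 33.5 and 35.7 TPM in WT males 1 to 3 and 39.1 and 45.9 TPM in WT females 1 and 3. It was 17.5 TPM in Q84 male 1 and 14.5, 15.5, 12.3 and 13.4 TPM in Q84 females 1 to 4. Every Q84 library lay well below every WT library, and the gap between the groups was wider than the range of the 5 Q84 values. The means were 37.3 ± 5.46 and 14.7 ± 1.99 TPM (SD, n = 5 each), so that the Q84 mean was 39.3% of the WT mean, and the log2 fold change was -1.32 (SE 0.0634). The libraries shown apart fell between the groups, at 22.0 TPM in the one labelled WT female 2 and 22.4 TPM in the one labelled Q84 female 5. With both under their labels the log2 fold change was -1.01 (SE 0.200).

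Most Ptgfr reads belonged to the long coding transcript of 6624 bases, which held 96.1% of the estimated counts of the gene and 72.1% of its TPM. That transcript alone was at 25.8 ± 1.99 TPM in the 5 WT and 10.4 ± 0.398 TPM in the 5 Q84 libraries, with ranges of 23.7 to 28.4 and 9.79 to 10.8 TPM. The spread among the 5 Q84 libraries was thus narrower for this transcript than for the sum over the gene. Its share of the gene's TPM was 69.8% in WT and 71.5% in Q84.

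Ptger1 encodes EP1, the Gq-coupled receptor for prostaglandin E2, and was a low-level gene with 255 to 569 estimated counts per library in the 5 WT and 86 to 149 in the 5 Q84 libraries. Its level was 1.17, 2.61 and 2.61 TPM in WT males 1 to 3 and 1.82 and 1.68 TPM in WT females 1 and 3. In Q84 male 1 it was 0.703 TPM, and in Q84 females 1 to 4 it was 0.836, 0.670, 0.370 and 0.624 TPM. Every Q84 library lay below WT male 1, the lowest of the 5 WT. The means were 1.98 ± 0.626 and 0.641 ± 0.171 TPM (SD, n = 5 each), the Q84 mean was 32.4% of the WT mean, and the log2 fold change of -1.48 (SE 0.227) was the most negative of the family. The library labelled WT female 2, at 1.74 TPM, was inside the WT range, and that labelled Q84 female 5, at 1.07 TPM, was between the groups.

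Tbxa2r, the Gq-coupled thromboxane A2 receptor known from platelets and vessel walls, had 42 to 147 estimated counts per library. It stood at 1.49, 1.49 and 1.50 TPM in WT males 1 to 3 and at 1.49 and 0.977 TPM in WT females 1 and 3. The Q84 values were 1.34 TPM in male 1 and 1.10, 0.476, 0.951 and 0.848 TPM in females 1 to 4. Except for WT female 3, the WT libraries lay above all Q84 libraries. The means were 1.39 ± 0.230 and 0.943 ± 0.321 TPM (SD, n = 5 each), with a log2 fold change of -0.39 (SE 0.249) that did not pass. The library labelled WT female 2 held the highest value of all, 1.84 TPM, and the library labelled Q84 female 5 held 1.09 TPM. Of 8 platelet and megakaryocyte markers, 0 passed in the 10 libraries (edgeR, limma-voom and DESeq2, with 1 at an unadjusted p under 0.05), and their summed level was 15.9 to 32.0 TPM in WT and 20.7 to 46.6 TPM in Q84. Their part in the Tbxa2r values was not tested.

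Among the Gs-coupled receptors, Ptgdr encodes DP1, the receptor for prostaglandin D2. Its level was 24.0, 34.1 and 40.0 TPM in WT males 1 to 3 and 35.7 and 46.8 TPM in WT females 1 and 3. It was 21.9 TPM in Q84 male 1 and 20.7, 16.9, 17.7 and 17.0 TPM in Q84 females 1 to 4. The groups did not overlap, though WT male 1 was within a few TPM of Q84 male 1, and the Q84 libraries varied less than the WT libraries. The means were 36.1 ± 8.38 and 18.8 ± 2.31 TPM (SD, n = 5 each), 52.1% in Q84 of the WT mean, with a log2 fold change of -0.94 (SE 0.144). Q84 female 5 by label (32.8 TPM) and WT female 2 by label (31.0 TPM) were both inside the range of the 5 WT libraries, and with the labels as given the log2 fold change was -0.71 (SE 0.197). Ptgdr has 1 listed transcript, so no reads had to be divided within the gene.

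Ptgir, the prostacyclin receptor, was at 6.46, 11.2 and 11.6 TPM in WT males 1 to 3, 8.90 and 9.96 TPM in WT females 1 and 3, 8.86 TPM in Q84 male 1 and 7.08, 6.66, 5.11 and 7.04 TPM in Q84 females 1 to 4. WT male 1 lay among the Q84 females, and Q84 male 1 lay just under WT female 1. The means were 9.62 ± 2.06 and 6.95 ± 1.34 TPM (SD, n = 5 each), with a log2 fold change of -0.37 (SE 0.156) that did not pass. Without WT male 1 the value was -0.45 and passed. The libraries shown apart held 11.2 TPM (labelled WT female 2) and 9.90 TPM (labelled Q84 female 5). Its 2 coding transcripts, predicted to encode 212 and 415 amino acids, held 47.2% and 52.8% of the level, and because they share all but 29 and 609 of their bases this division is uncertain.

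Ptger4 and Ptger2 encode EP4 and EP2, which both answer prostaglandin E2 through Gs. Ptger4 was at 4.28, 6.37 and 6.22 TPM in WT males 1 to 3, 5.42 and 4.57 TPM in WT females 1 and 3, 5.88 TPM in Q84 male 1, and 5.63, 4.75, 5.11 and 5.18 TPM in Q84 females 1 to 4. The Q84 values lay inside the WT range. The means were 5.37 ± 0.942 and 5.31 ± 0.447 TPM (SD, n = 5 each), and the log2 fold change was 0.08 (SE 0.122), with an approximate 95% interval of -0.16 to 0.32. Ptger2 was the member with the lowest level, at 0.516 to 1.04 TPM in WT and 0.622 to 0.862 TPM in Q84, from 104 to 201 estimated counts per library. Its log2 fold change was -0.22 (SE 0.204), with an interval of -0.62 to 0.18, and it did not pass. Antisense gene models cover all of Ptger2 (Gm17173) and Ttc33 covers 31.1% of Ptger4. The sources used here do not state whether counting used strand, and without it reads of such pairs cannot be told apart.

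Ptger3 encodes EP3, the Gi-coupled prostaglandin E2 receptor, and its level was 14.7, 22.5 and 24.1 TPM in WT males 1 to 3 and 19.6 and 29.0 TPM in WT females 1 and 3. In Q84 male 1 it was 18.6 TPM, and in Q84 females 1 to 4 it was 15.7, 13.3, 11.1 and 13.6 TPM. WT male 1 lay among the Q84 libraries, and the other WT libraries lay above all of them. The means were 22.0 ± 5.33 and 14.4 ± 2.84 TPM (SD, n = 5 each), and the log2 fold change was -0.60 (SE 0.167), which did not pass in the 10 libraries. It passed without WT male 1 (-0.67) and without Q84 male 1 (-0.83), but not in the other 8 fits that left out a library. Of 10 other settings it passed in 5: DESeq2 (-0.61), upper-quartile scaling (-0.60), a mean of at least 1 CPM (-0.61), genotype alone (-0.59) and the female libraries alone (-0.81). The library labelled WT female 2 held 23.8 TPM, inside the WT range. The library labelled Q84 female 5 held 16.0 TPM, which is inside the ranges of both groups.

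Within Ptger3, 1 transcript annotated as a retained intron, ENSMUST00000196682 of 3577 bases, held most of the level. It has no coding sequence, but 2451 of its bases are in no other Ptger3 transcript. Its share was 93.1% of the gene's TPM in the 5 WT libraries (91.8 to 93.8%) and 88.2% in the 5 Q84 libraries (86.9 to 88.8%). The coding transcript ENSMUST00000173533, of 2097 bases and 366 amino acids, held 4.04% in WT (3.45 to 5.15%) and 10.1% in Q84 (8.50 to 11.1%). While the gene as a whole was lower in Q84, this transcript was at 0.872 ± 0.198 TPM in WT and 1.44 ± 0.168 TPM in Q84 (SD, n = 5 each), with ranges of 0.749 to 1.22 and 1.16 to 1.58 TPM. The other coding transcript, ENSMUST00000041175 of 362 amino acids, was at 0.629 ± 0.117 and 0.256 ± 0.142 TPM and held 2.90% and 1.71%. The library labelled WT female 2 had shares of 91.7%, 6.83% and 1.48% for these in the order given, and the library labelled Q84 female 5 had 86.8%, 10.7% and 2.51%.

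Only 89 bases belong to ENSMUST00000173533 alone, so its share rests on how shared reads were divided, and intron-bearing RNA of unspliced origin cannot be told apart from the annotated retained intron. These shares were tested by no model. Of 12 receptor transcripts at 0.5 TPM or more on average in genes with several transcripts, a limit set after the values were seen, shares did not overlap for 1 transcript higher and 1 lower in Q84, both of Ptger3. Among 33138 such transcripts of all genes, 1.63% did not overlap higher in Q84 and 1.78% lower.

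**Figure D3:**
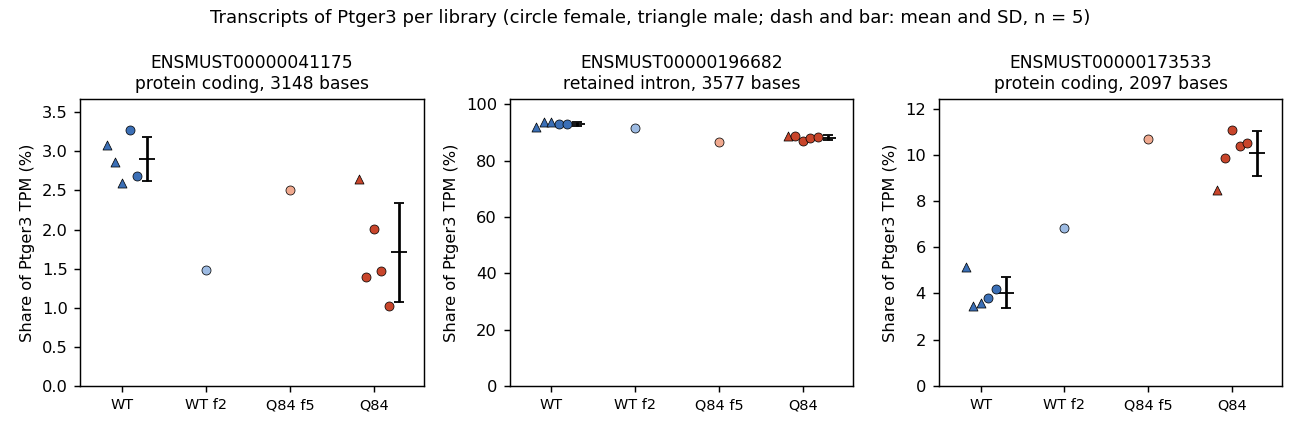
Share of the Ptger3 level (percent of the gene's TPM, vertical axes from 0 with a scale of their own) held by each of its 3 listed transcripts in every library, with groups and symbols as in the plot of receptor levels. The shares of ENSMUST00000173533 are 3.45 to 5.15% in the 5 WT and 8.50 to 11.1% in the 5 Q84 libraries, and those of ENSMUST00000196682 are 91.8 to 93.8% and 86.9 to 88.8%.

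Summed over the 8 genes, the family was at 115 ± 19.9 TPM (84.9 to 140) in the 5 WT and 62.5 ± 8.63 TPM (53.4 to 75.5) in the 5 Q84 libraries. Mitochondrial genes took 6.85 to 9.55% of counts in the 5 WT and 8.91% or more in each of the 5 Q84 libraries, with 7.53% in the library labelled WT female 2 and 11.9% in that labelled Q84 female 5, and their part in the receptor values was not tested. Gq-coupled members made up 35.9% ± 3.56 of this sum in WT and 26.0% ± 1.34 in Q84, with ranges of 32.4 to 41.2% and 24.8 to 28.3%. The Gs-coupled members held 45.2% ± 2.45 and 51.0% ± 1.80, and Ptger3, the Gi-coupled member, held 19.0% ± 1.59 and 23.0% ± 1.45 (SD, n = 5 each). Most of this Ptger3 level, 93.1% in WT and 88.2% in Q84, was the retained-intron transcript without coding sequence. The Gi share is thus mostly not coding RNA. Ptgfr supplied nearly all of the Gq sum, so the change in this share is that of Ptgfr. Ptgfr stood at 7.16 ± 1.88 times the level of Ptger4 within the same library in WT and at 2.77 ± 0.350 times in Q84, at 5.26 or more in each WT and 3.27 or less in each Q84 library, a ratio on which scaling between libraries has no effect. Family sums in the libraries shown apart were 98.5 TPM (labelled WT female 2) and 88.4 TPM (labelled Q84 female 5), and their Gq shares were 26.0% and 27.8%.

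**Figure D4:**
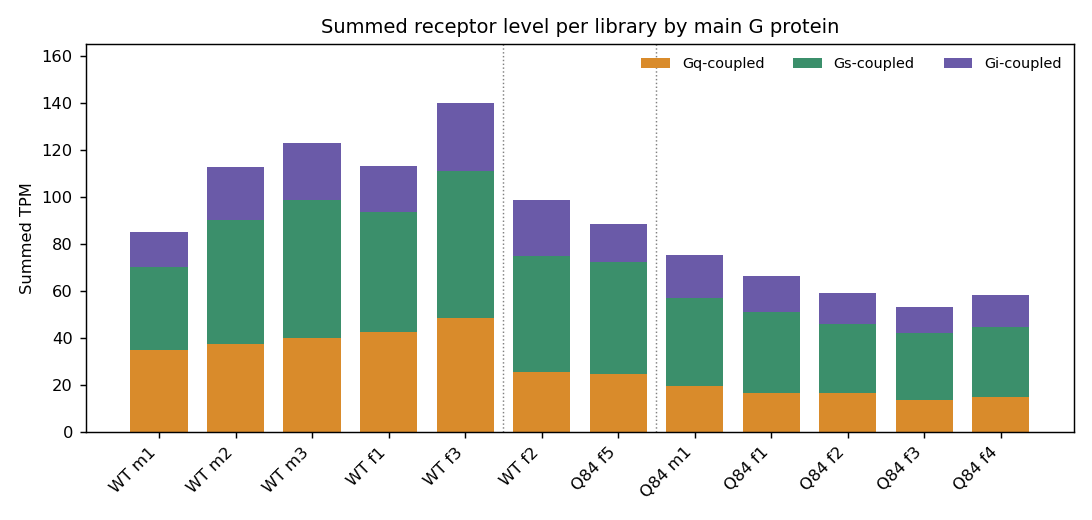
Summed level of the prostanoid receptors in TPM (vertical axis, from 0) in each library, stacked by the main G protein: Gq (Ptgfr, Ptger1, Tbxa2r), Gs (Ptgdr, Ptgir, Ptger4, Ptger2) and Gi (Ptger3). Dotted lines set off the pair of libraries shown apart (WT f2 and Q84 f5 by label). The 5 WT libraries reach 84.9 to 140 TPM and the 5 Q84 libraries 53.4 to 75.5 TPM, and the Gq part is the one that shrinks most. The Gi part is mostly a Ptger3 transcript annotated as a retained intron.

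WT male 1 was the lowest of the 5 WT libraries in 7 of the 8 receptors, all but Tbxa2r. It was also lowest of these 5 in the summed level of 17 markers of non-peptidergic nociceptors and itch neurons, at 562 TPM, where the other 4 held 770 to 1000 TPM. WT male 1 was lowest of them in the sum of the all-neuron markers as well, at 7473 TPM, where the other 4 held 8458 to 10613 TPM. Its sums of peptidergic markers (4981 TPM) and of large myelinated neuron markers (1852 TPM) were not the lowest. Whether the receptor values there follow those markers was not tested.

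Sex was not used to pick the receptors and could be tested in all 12 libraries. Of the 8 receptors, 0 passed for male against female (edgeR, limma-voom and DESeq2), where 0.0636% of all genes tested passed with edgeR (0.0477% higher in males and 0.0159% lower), and 0 of the 8 had an unadjusted p under 0.05. Log2 fold changes, positive where males were higher, ran from -0.18 (Ptgdr, SE 0.210) to 0.30 (Ptger1, SE 0.251), all with an edgeR adjusted p of 1. The approximate 95% interval was -0.51 to 0.33 for Ptgfr, -0.35 to 0.25 for Ptger3 and -0.14 to 0.32 for Ptger4. For the interaction of genotype and sex, 0 of the 8 passed by the same 3 tools and 0 had an unadjusted p under 0.05, where 0.0424% of all genes passed with edgeR. The values ran from -0.31 (Ptgfr, SE 0.452) to 0.51 (Ptger3, SE 0.297, edgeR adjusted p = 0.906), and a single Q84 male library limits this test.

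Genes around the receptors were taken from 9 lists of the pathway, 100 genes in all. In the fit to 10 libraries 99 were tested, 13 were lower, 1 was higher and 85 did not pass, against 4.93% lower and 1.52% higher of all genes. In the 12 libraries as labelled, 0 of the 99 passed with edgeR or limma-voom, and DESeq2 called 9, all lower. With edgeR 19 of the 99 had an unadjusted p under 0.05, as had 2695 of all 18875 genes tested.

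Enzymes that make prostanoids did not pass in the 10 libraries: 0 of 13 by edgeR and limma-voom, with 3 at an unadjusted p under 0.05, and 1 (Ptges2) by DESeq2. Their median log2 fold change was -0.09. Ptgs1, the constitutive cyclooxygenase, was at 1.35 ± 0.425 TPM in WT and 1.25 ± 0.267 TPM in Q84, and the inducible Ptgs2 was at 0.284 ± 0.276 and 0.165 ± 0.0908 TPM (SD, n = 5 each), too low and variable to compare. Ptges2, a prostaglandin E synthase, had the smallest p of the list. It was at 25.4 ± 2.09 and 19.8 ± 2.35 TPM, with a log2 fold change of -0.30 and an edgeR adjusted p of 0.0954. The prostaglandin E synthases Ptges (4.88 and 5.07 TPM) and Ptges3 (252 TPM in both groups) had log2 fold changes of 0.10 and -0.01.

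Enzymes for the ligands of Ptgfr and Ptgdr lay on both sides of 0. The prostaglandin F synthase Fam213b (now Prxl2b) was at 136 ± 9.61 TPM in WT and 111 ± 3.83 TPM in Q84, groups that did not overlap, with a log2 fold change of -0.25 that did not pass (edgeR adjusted p = 0.142). Akr1b3, which also forms prostaglandin F2 alpha, had a value of 0.02, and Cbr1, a carbonyl reductase acting on prostaglandins, 0.18. The prostaglandin D synthase Ptgds varied most, from 32.7 to 381 TPM among the 5 WT libraries, with a log2 fold change of -0.43 (SE 0.877) that became 1.27 without WT female 1. The blood-cell form Hpgds had a value of 0.13. The prostacyclin synthase Ptgis was at -0.43, the thromboxane synthase Tbxas1 at 0.04 and the phospholipase Pla2g4a, which releases arachidonic acid, at -0.14, and none of these passed (edgeR adjusted p = 0.158 for Ptgis). The direction of Pla2g4a (0.06) and Ptgs1 (0.20) turned without WT female 1, and that of Ptges (-0.19), Hpgds (-0.13), Tbxas1 (-0.38) and Akr1b3 (-0.11) turned without Q84 male 1.

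Of 8 genes for breakdown and transport, 0 passed by edgeR, limma-voom or DESeq2, with 2 at an unadjusted p under 0.05. They were Slco4a1, an organic anion transporter, at -0.69 (edgeR adjusted p = 0.0975), and Hpgd, which inactivates prostaglandins, at 0.40 (edgeR adjusted p = 0.206). Of 4 other prostanoid-binding or associated genes, 3 were tested and 0 passed with any of the 3 tools or at an unadjusted p under 0.05. The receptor-associated Ptgfrn stood at -0.10 and the nuclear receptor Ppard at 0.12. Ptgdr2, the second prostaglandin D2 receptor, did not reach the count filter, with at most 0.0491 TPM in any of the 10 libraries.

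Downstream of the Gq-coupled receptors, RNA of several signalling genes fell in Q84. The alpha subunits Gnaq (59.5 ± 12.7 to 36.2 ± 3.24 TPM) and Gna14 (108 ± 16.2 to 72.5 ± 9.42 TPM) fell by 0.63 and 0.55 on the log2 scale (edgeR adjusted p = 0.0167 and 0.00749). Gnao1, the neuronal Go subunit, fell by 0.58 (edgeR adjusted p = 0.0221), and the other 9 of 12 G protein genes did not pass. The call of Gnaq was lost without WT female 3 (edgeR adjusted p = 0.0602) or without Q84 male 1 (0.122), and the call of Gnao1 without WT female 3 or without Q84 male 1 (edgeR adjusted p = 0.101 for each). Of the 4 phospholipases C beta, Plcb3 fell by 0.69 (14.0 ± 1.88 to 8.16 ± 1.34 TPM, edgeR adjusted p = 0.0105), a call lost without WT female 1 (0.0538).

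Of 19 kinases and cyclic AMP sensors, 5 fell and 0 rose, with a list median of -0.29. The protein kinase C genes Prkca (-0.71, edgeR adjusted p = 0.00487), Prkcb (-0.51, 0.00922) and Prkcd (-0.82, 0.0267) were among them. The call of Prkcd was lost in 7 of 10 fits that left out a library, with adjusted p-values of 0.0515 to 0.114, and that of Prkcb without Q84 male 1 (0.0725). The cyclic AMP side was represented by Prkar2b, a regulatory subunit of protein kinase A (202 ± 11.3 to 139 ± 17.2 TPM, -0.50, edgeR adjusted p = 0.00158), and Rapgef4, an exchange factor opened by cyclic AMP (-0.39, edgeR adjusted p = 0.00665). Of 9 adenylyl cyclases 0 passed by edgeR, limma-voom or DESeq2, with 1 at an unadjusted p under 0.05: Adcy3 was at 0.58 (edgeR adjusted p = 0.127, and 0.0437 without WT male 1, where it was 0.50) and Adcy1 at -0.28. In the library labelled Q84 female 5, Gnaq (88.9 TPM), Plcb3 (28.8 TPM), Prkca (56.7 TPM) and Prkcb (51.4 TPM) lay above the range of the 5 WT libraries.

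Among 12 channels that prostanoids are known to sensitise or that set nociceptor excitability, P2rx3, an ATP-gated channel of nociceptors, fell (259 ± 57.4 to 111 ± 24.8 TPM, log2 fold change -1.21, edgeR adjusted p = 0.00167). The list median was -0.62, 11 of 12 were below 0, and DESeq2 called 5 of them lower. Of 19 receptors for other lipid mediators 3 fell and 1 rose, with a median of 0.13. Lpar3 and Lpar5, receptors for lysophosphatidic acid, fell by 1.59 (50.6 ± 14.4 to 16.4 ± 3.46 TPM, edgeR adjusted p = 0.00154) and 1.63 (edgeR adjusted p = 0.0136), the latter no longer passing without WT female 3 (0.0562). Cysltr2, a leukotriene receptor, fell by 0.86 (34.8 ± 7.51 to 20.2 ± 1.75 TPM, edgeR adjusted p = 0.00257). Cnr1, the cannabinoid receptor CB1, rose by 0.47 (14.7 ± 1.02 to 19.1 ± 1.05 TPM, edgeR adjusted p = 0.00253). Beside the 3 of 8 prostanoid receptors that passed, these are 4 of 19, and no test of the difference between the families was run.

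**Figure D5:**
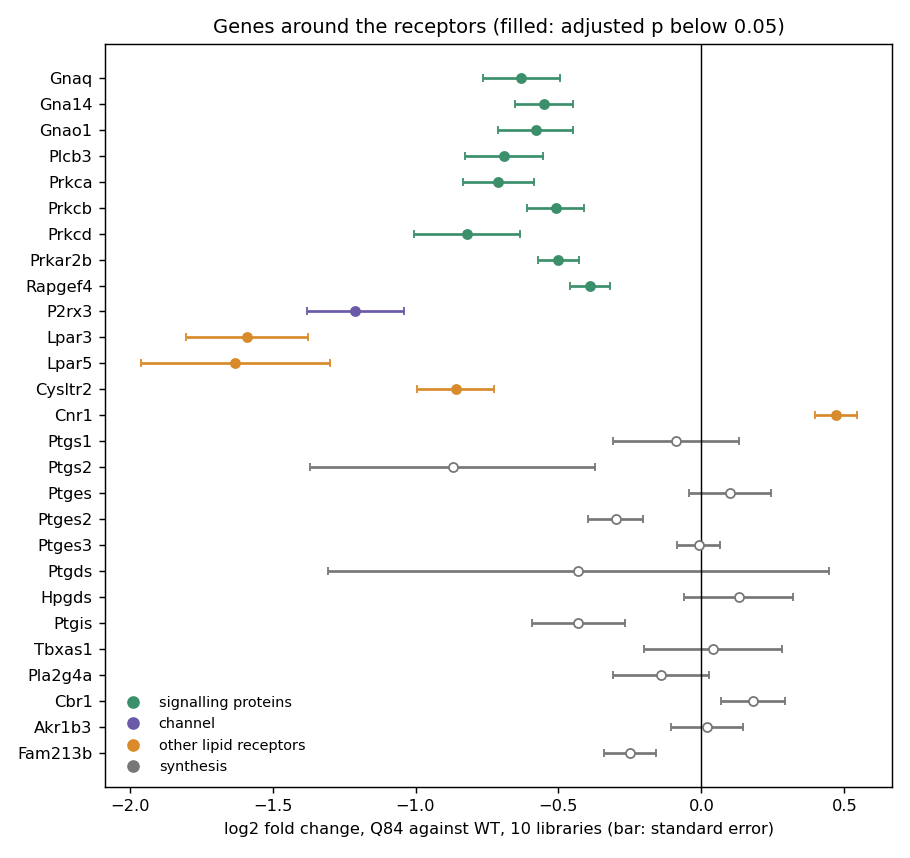
Log2 fold change, Q84 against WT (horizontal axis), in the 10 libraries for named genes around the prostanoid receptors, with bars of 1 standard error from edgeR and filled symbols where the adjusted p is below 0.05. The filled signalling genes lie between -0.39 (Rapgef4) and -0.82 (Prkcd), Cnr1 is the filled gene above 0, and all 13 synthesis genes are open.

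Markers of cell types that could carry these receptors moved with genotype in the same libraries. Over all 18721 genes tested in the 10 libraries, edgeR called 4.93% lower and 1.52% higher, with a median log2 fold change of 0.01. At an unadjusted p under 0.05 were 3785 of these genes. These shares stand beside every edgeR count of cell type markers given here and below. Of 17 markers of non-peptidergic nociceptors and itch neurons, 12 fell and 0 rose in the 10 libraries, with a median of -0.98. Their summed level was 562 to 1000 TPM in the 5 WT, 368 to 483 TPM in the 5 Q84, 800 TPM in the library labelled WT female 2 and 794 TPM in that labelled Q84 female 5. This list shares 4 genes with the pathway lists, P2rx3, Lpar3, Lpar5 and Trpa1. Of 11 peptidergic markers 5 fell, with a median of -0.52 and sums of 4813 to 5907 TPM in WT, 2588 to 3432 TPM in Q84 and 4110 and 4290 TPM in the pair shown apart. Of 12 markers of large myelinated neurons 3 fell (sums of 1363 to 1965 and 1155 to 1626 TPM), and of 12 markers of all neurons 0 passed with edgeR or limma-voom and 1 with DESeq2 (7473 to 10613 and 6788 to 8622 TPM).

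Outside neurons, 0 of 8 satellite glia, 0 of 8 Schwann cell, 0 of 12 macrophage and 0 of 9 endothelial markers passed with edgeR, with 1, 0, 2 and 3 at an unadjusted p under 0.05. DESeq2 called 1 of these, endothelial and higher, and limma-voom 0. Macrophage markers summed to 154 to 472 TPM in WT and 204 to 396 TPM in Q84. Of 11 mural cell markers, Rgs5 fell and Abcc9 rose. The 11 together summed to 230 to 292 TPM in WT and 134 to 211 TPM in Q84. Only 3 of the 11 had a log2 fold change below 0, and the list median was 0.54, so the lower sum is not shared by most of the list. Of 10 fibroblast and sheath markers 2 rose (Pdgfra and Cldn1). Markers of granulocytes and mast cells (164 to 854 TPM in WT, 569 to 1673 TPM in Q84) and red blood cells (641 to 3511 and 1635 to 6840 TPM) overlapped between groups, and 0 of 12 and 0 of 7 passed with edgeR, 6 of each at an unadjusted p under 0.05 and 1 of each called by DESeq2. Of 8 T and B cell markers, Cd3e and Cd8a fell (sums of 4.63 to 6.64 TPM in WT and 2.86 to 5.04 TPM in Q84).

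Markers of tissue around the ganglion stood out in single libraries. Of 7 skin markers, Krt14, Krt15 and Krt13, keratins of epithelium, fell with edgeR and 0 passed with limma-voom. Their list summed to 177 TPM in WT female 1 and to 4.76 to 7.38 TPM in the other 11 libraries. Of 8 adipocyte markers Retn rose, and their sum was 155 TPM in Q84 male 1, 55.3 TPM in Q84 female 1 and 6.98 to 21.8 TPM elsewhere. Of 7 skeletal muscle markers 0 passed with edgeR, limma-voom or DESeq2, and 0 had an unadjusted p under 0.05. They summed to 1303 TPM in Q84 male 1, 759 TPM in Q84 female 1, 583 TPM in the library labelled WT female 2, 330 TPM in WT male 1 and 5.38 to 186 TPM elsewhere. WT female 1 and Q84 male 1 are also the libraries without which the synthesis genes named above turned direction. No marker of any of these lists was at 0 in every library. The part of any of these cell types in the receptor values was not tested.

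Genes whose levels followed each receptor over the 12 libraries were ranked by Pearson's r of log2 CPM among 13587 genes. The r values carry the genotype difference and whatever the libraries share, and are a description. Ptgfr was followed most closely by Smyd3 and Smim5 (r = 0.99 each) and Fam126b (0.98), Ptgdr by Kcnab1, Lpar3 and Tuft1 (0.98 each), and Ptger1 by Scn4b and Lgi2 (0.98) and Pcdhac1 (0.97). Ptger3 was followed by Fbxl2 and Fig4 (0.97) and Snap29 (0.96), and Ptgir by Nmnat2, Camk2a and Dhx57 (0.96). The closest companions of the other 3 members had lower values of r: Tmem176b (0.93), Tuba1b (0.90) and Mpdu1 (0.89) for Ptger4, Ebp (0.90), Efna1 (0.89) and Prkag2 (0.88) for Ptger2, and Poc1b (0.88), Rdh5 (0.88) and Kcnj13 (0.84) for Tbxa2r. Without the 2 libraries farthest from the median of the receptor, r stayed at 0.96 or more for the companions of Ptgfr, Ptgdr and Ptger1, and dropped to 0.73 for Ebp and 0.68 for Kcnj13.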

How the data were processed

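The 12 ganglion libraries were made from poly(A) RNA, per the labels' protocols. The submitters' processing notes name kallisto 0.46.2, STAR 2.7.10b and the build GRCm39, without their roles. Per the file headers, the deposited tables hold the authors' estimated counts, TPM, length and effective length for 116313 transcripts per library. No strand setting is stated in the sources used here.

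Transcripts were assigned to genes by identifier in GENCODE M21 (98.3% matched, and the rest held 0.751 to 0.804% of counts). Estimated counts were summed per gene, rounded, filtered with filterByExpr, scaled with TMM and tested with edgeR 4.0.16 (quasi-likelihood, robust) on sex and genotype, with Benjamini-Hochberg adjustment over all genes at 0.05. The interaction added the product of both. Approximate 95% intervals are the estimate plus or minus 1.96 standard errors, with the error derived from the F statistic of the test. With few libraries they can be too narrow. In the 12 libraries as labelled, that of Ptgir for Q84 against WT was -0.66 to -0.02 beside an unadjusted edgeR p of 0.0526. Levels are the deposited TPM values summed per gene. DESeq2 1.42.0 and limma-voom 3.58.1, other scalings, filters and covariates, counts made from TPM (length-scaled) and each library left out were alternatives. The test was run on simulated counts with the same spread for every gene and no effect of sex. That setting is simpler than these libraries, so it does not show how the test behaves in them. Between replicates the chi-square per degree of freedom was 30.4 or more, so no library was counted as a copy of another. The annotation is of another build than the files, so no gene coordinates are given, and promoter sequences are RefSeq's (GRCm38.p6).

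Named genes were the receptors, the pathway genes that passed in the 10 libraries, all synthesis genes, otherwise the 2 of smallest p per list, the 3 genes most like each receptor, and markers that define a cell type. Members, lists and the libraries shown apart were chosen with earlier results of these data known. Values of 1 further gene are not reported here.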

Additional observations from a re-analysis of the deposited data

Results flagged for a closer look

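Of 24 groups of receptor values examined, 3 held a library far from the others of its group, where chance gives about 1 in 20 for a single group. The groups of libraries labelled Q84 and of Q84 females share libraries. The same Ptgdr value was flagged in both, so these groups are not independent. The library labelled Q84 female 5 held 32.8 TPM of Ptgdr, while the nearest of the other libraries labelled Q84 held 21.9 TPM and the nearest of the other Q84 females 20.7 TPM. This is the library without the 1000-base Atxn3 transcript. WT male 1 held 0.516 TPM of Ptger2, while the nearest other library labelled WT held 0.887 TPM. That Ptger2 value rests on 104 estimated counts.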

How the results depend on the processing

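In the 10 libraries the calls of Ptgfr, Ptger1 and Ptgdr held under all 10 other settings and all 10 fits that left out a library, and receptors called ran from 3 to 5 in the latter. With every library left out in turn, genes called ran from 681 to 1978 (117 to 591 higher, 564 to 1387 lower) in the 10 libraries, from 0 to 1082 (0 to 244 higher, 0 to 838 lower) with 0 to 4 receptors in the 12 libraries as labelled, from 6 to 23 (5 to 20 higher, 1 to 3 lower) for sex and from 6 to 10, all higher, for the interaction. The fit of the interaction without Q84 male 1 could not be made.

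In the 12 libraries as labelled, genes called were 15 (5 higher, 10 lower) without a count filter, 620 (167 higher, 453 lower) with 4 receptors by DESeq2, and 193 (32 higher, 161 lower) with 2 receptors for genotype alone. In the 10 libraries DESeq2 called 1934 genes (582 higher). For sex, genes called were 7 (4 higher) with a mean of at least 1 CPM, 21 (15 higher, 6 lower) by DESeq2, 7 (1 lower) in the 6 WT libraries alone and 5, all higher, in 10 libraries. For the interaction they were 5, all higher, with a mean of at least 1 CPM, 31 (28 higher, 3 lower) by DESeq2 and 17, all higher, by limma-voom.

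The replicate block, which adds the replicate number as a factor, gave 639 genes (102 higher, 537 lower) and 3 receptors in the 12 libraries, 701 (133 higher, 568 lower) in the 10 libraries, 7 (4 higher) for sex and 0 for the interaction. Same-numbered libraries, the Q84 male left out, had correlations of -0.13 to 0.24 in their deviations from the group mean. Differently numbered libraries were not compared, so these values cannot settle whether the numbers pair samples. The main fits treat none as paired. The fourth and the fifth numbers are held by Q84 female 4 alone and by the library labelled Q84 female 5 alone, so the block by construction takes no genotype contrast from either. In the 10 libraries the block also left out of the calls Gna14 (adjusted p = 0.0520), Gnao1 (0.0543), Lpar5 (0.0908) and Prkcd (0.123).

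Directions (log2 fold changes) turned as follows. In the 12 libraries these were Ptger4 (-0.01 for genotype alone), Ptgs2 (0.02 by limma-voom), Hpgds (-0.02 from length-scaled TPM) and Akr1b3 (-0.01 with the replicate block). In the 10 libraries the female libraries alone turned Ptges (-0.17), Hpgds (-0.12), Akr1b3 (-0.09) and Tbxas1 (-0.36), limma-voom turned Ptgds (0.04), and Ptges3 was 0.00 from length-scaled TPM, 0.01 with the block, 0.05 for genotype alone and 0.03 in females alone. For sex, the 6 WT libraries alone turned Ptgfr (0.02) and Ptgir (-0.06). For the interaction, Ptgfr was 0.08 from length-scaled TPM and 0.14 in 10 libraries, Ptger1 0.26 with the block and 0.04 in 10 libraries, and Ptger4 0.01 by limma-voom. As shares of estimated counts instead of TPM, the main transcripts held 96.1% (Ptgfr), 65.3% (Ptger1) and 93.7% (Ptger3).

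Leaving out 1 library turned other directions, given here as the lowest and highest log2 fold change. In the 12 libraries these were Ptger4 (-0.04 to 0.06), Ptgs2 (-0.79 to 0.53), Cbr1 (-0.00 to 0.13), Pla2g4a (-0.23 to 0.06), Ptges (-0.15 to 0.13), Ptgds (-0.93 to 0.45), Ptgs1 (-0.11 to 0.28), Akr1b3 (-0.01 to 0.11) and Tbxas1 (-0.15 to 0.45). In the 10 libraries they were Pla2g4a (-0.30 to 0.06), Ptges (-0.19 to 0.20), Hpgds (-0.13 to 0.25), Ptgds (-1.54 to 1.27), Ptgs1 (-0.31 to 0.20), Akr1b3 (-0.11 to 0.08), Tbxas1 (-0.38 to 0.40) and Ptges3 (-0.03 to 0.02). For sex they were Ptgfr (-0.25 to 0.02), Ptgir (-0.06 to 0.17) and Ptger3 (-0.24 to 0.07), and for the interaction Ptger4 (-0.13 to 0.08) and Ptgdr (-0.08 to 0.34). In the 10 libraries the call of Prkcd was also lost without a count filter (adjusted p = 0.0553) and that of Prkcb in the female libraries alone (0.0673). The cause of the changes between settings was not tested. Tbxa2r, Ptger2 and Ptger1 had the fewest counts, and the part of depth in their errors was not tested.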
